A study of Rattus norvegicus with 24 samples.

Results

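The genes described here encode proteins of keratinocyte differentiation: Csta, Stfa3, Krtdap, Slurp1, Calml3, Sfn and Tmem45a2. They were found among the gene probes of a 2-colour rat array by the gene name in the scanner files, by its current form, or by accession. Of the 7 genes, 6 had a probe and all 6 passed the signal filter, out of 12683 named genes tested. Sfn had no probe by this rule. The only probe described in the files as close to it is assigned by its accession to Sfnl1, a relative of Sfn, and its values are given apart. The genes were chosen by their measured differences in 2 comparisons, DSS against untreated normal colon and tumour against normal colon of DSS rats. Their values in those 2 comparisons are therefore given as a description, with no test.

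RNA came from 10 male (ACIxF344)F1-Pirc rats, all heterozygous for the Pirc allele of the tumour suppressor Apc, which gives rats colonic tumours. The groups were tumours of DSS rats, tumours of untreated rats, normal colon of DSS rats and normal colon of untreated rats, with 5 rats in each. DSS rats (1, 5, 6, 7 and 9) were given 4% dextran sodium sulfate (molecular weight 500000) in the drinking water on days 40 to 47 and days 54 to 61. This polymer damages the epithelium of the colon and inflames it. Untreated rats (2, 3, 4, 8 and 10) carried the same allele, and both tissues of every rat were taken from the distal colon at day 97. Each Cy3-labelled sample was read against 1 Cy5-labelled pool of colon RNA from Apc wild-type rats. A level below is therefore the log2 ratio of the sample to that pool, so 0 means a level equal to the pool, and levels of different genes cannot be compared. No array held wild-type rats as a group of their own.

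Keratinocytes build the stratified squamous epithelium of skin, oesophagus and anal canal. As they move up from the basal layer they stop dividing, switch keratins, and make proteins that are cross-linked into the cornified envelope or secreted between the cells. Colonic epithelium is a single layer of columnar cells that does not normally run this programme. Csta (cystatin A, also called stefin A) and Stfa3, a rodent stefin A, inhibit cysteine proteases inside cells, and human cystatin A is built into the cornified envelope. Krtdap is a small protein secreted by differentiating keratinocytes. Slurp1 is a secreted protein of the Ly6 and uPAR family that acts on nicotinic receptors, and loss of human SLURP1 causes a thickening of palm and sole skin. Calml3 is a calmodulin-like protein of stratified epithelia and binds the unconventional myosin Myo10. Sfn is the sigma form of the 14-3-3 proteins, made in stratified epithelia and induced by p53. Tmem45a2 encodes a membrane protein related to TMEM45A, which human keratinocytes make as they differentiate.

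Csta and Stfa3 lie in a stefin A cluster on chromosome 11. From one to the other, 9 of the 16 annotated genes are named as stefin or cystatin A, the pseudogene Stfa3l-ps1 among them (RefSeq, assembly GRCr8). Genes outside this stretch were not counted. Near-identical copies may share signal on a short probe, so the probe sequences are shown first. In the 60-base probes below, read from the scanner files, capitals mark bases that differ between the second Csta probe and the brighter Stfa3 probe in their best ungapped overlap.
Csta: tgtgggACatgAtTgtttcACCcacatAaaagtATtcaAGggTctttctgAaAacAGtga
Stfa3: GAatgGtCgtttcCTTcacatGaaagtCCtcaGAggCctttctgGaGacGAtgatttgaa
These probes matched at 37 of 54 overlapping bases (68.5%). The other pair of probes, the brighter one named Csta and the second one named Stfa3, matched at 51 of 57 bases (89.5%) when one was turned to the opposite strand, and at 23 of 52 bases on the same strand. The first 30 bases of their 39-base shared run are printed next as they stand in each probe.
Csta: cagcaaattctaaagtgacctgattcctct
Stfa3: agaggaatcaggtcactttagaatttgctg
The second Stfa3 probe therefore carries the strand opposite to the brighter Csta probe. The brighter Csta probe and the brighter Stfa3 probe had 20 of 50 bases in common in their best overlap on the same strand. Sharing of signal with other copies of the cluster was not tested, and the values of Csta and Stfa3 are uncertain to that extent.

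The 250 bases upstream of the annotated starts are shown for the pair of stefin genes, whose sequences there were the most alike, and for Krtdap, because it holds a match to the AP-1 motif. The sequences are from RefSeq, build GRCr8, plus strand. In the first pair, capitals mark bases that differ or face a gap when both are aligned, and 204 of 260 aligned columns were identical (78.5%), against 42.5% to 53.1% for the other pairs among the 7 genes with a promoter sequence.
Csta, chr11:78125563-78125812: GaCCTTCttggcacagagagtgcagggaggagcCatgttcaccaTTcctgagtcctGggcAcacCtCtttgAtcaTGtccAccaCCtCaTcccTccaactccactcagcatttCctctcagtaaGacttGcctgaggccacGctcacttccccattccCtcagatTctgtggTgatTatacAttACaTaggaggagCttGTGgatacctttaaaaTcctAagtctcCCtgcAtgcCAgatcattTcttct
Stfa3, chr11:77858820-77859069: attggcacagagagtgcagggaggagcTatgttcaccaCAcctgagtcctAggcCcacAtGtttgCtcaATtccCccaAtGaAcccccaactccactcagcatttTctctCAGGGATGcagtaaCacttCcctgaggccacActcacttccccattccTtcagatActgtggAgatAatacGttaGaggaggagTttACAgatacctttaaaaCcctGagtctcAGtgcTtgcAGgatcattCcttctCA
Krtdap, chr1:95165612-95165861: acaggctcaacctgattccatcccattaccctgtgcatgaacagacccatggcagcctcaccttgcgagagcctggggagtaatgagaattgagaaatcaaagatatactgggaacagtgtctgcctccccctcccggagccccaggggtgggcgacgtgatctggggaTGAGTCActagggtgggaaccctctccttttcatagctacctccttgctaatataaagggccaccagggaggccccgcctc
In the Krtdap sequence, capitals mark a match to TGANTCA, the AP-1 motif, searched on both strands with no other motif overlapping it. AP-1 factors act in keratinocyte differentiation. A match was found in the 300-base windows of Krtdap and Sfn, and 7.33% of all 33469 promoter windows of that length held one. The KLF motif CCNCNCCC was found in Krtdap, Calml3 and Sfn, and in 46.3% of all windows. These matches are a description of the sequence.

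The 24 arrays comprised 6 of tumours of DSS rats, 5 of tumours of untreated rats, 6 of normal colon of DSS rats and 7 of normal colon of untreated rats, and second arrays of 1 sample were averaged. On 21 arrays 47.6% to 70.5% of gene probes were well above background, and on the other 3, which were the first array of normal colon of rat 2, normal colon of rat 4 and the tumour of rat 9, 86.9% to 95.2%. The number of arrays limits the precision. Each tissue sample is 1 rat, so p-values rest on the spread between rats. That spread is 1 estimate per gene over all 4 groups, with the pairing of tumour and normal colon left out. An SE can therefore differ from the spread within the groups compared. For Stfa3 in tumours the SE was 0.68, with SDs of 0.12 in DSS rats and 0.16 in untreated rats.

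In normal colon of DSS rats all 6 measured genes stood far above the pool, while in tumours 5 of them lay near or below it and Csta was above it by up to 3.01. Csta, the protease inhibitor, had log2 ratios of 5.43, 5.48, 4.84, 5.02 and 7.73 in normal colon of DSS rats 1, 5, 6, 7 and 9, against 0.05, -0.61, 0.57, 4.44 and 0.81 in normal colon of untreated rats 2, 3, 4, 8 and 10. The groups did not overlap, but untreated rat 8, at 4.44, came close to the lowest DSS rat, at 4.84. In tumours Csta was 0.18, 0.22, 0.94, 1.17 and 0.67 in DSS rats 1, 5, 6, 7 and 9, against 0.50, 0.53, 1.45, 3.01 and 2.09 in untreated rats 2, 3, 4, 8 and 10. All 10 tumours were above the pool, and the untreated rats 8 and 10 were the highest. The log2 difference between DSS and untreated normal colon was 4.65 ± 0.76 (SE, 5 rats per group), a 25.1-fold difference. Between tumour and normal colon of DSS rats it was -5.06 ± 0.76.

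Stfa3, the second stefin, gave nearly the same numbers in normal colon. It had log2 ratios of 5.48, 5.56, 4.53, 5.10 and 7.61 in DSS rats 1, 5, 6, 7 and 9, against 0.18, -0.14, 0.55, 4.65 and 0.53 in untreated rats 2, 3, 4, 8 and 10. Untreated rat 8 exceeded DSS rat 6, so these groups overlapped. In tumours Stfa3 stayed between -0.28 and 0.05 in DSS rats, against -0.23 to 0.20 in untreated rats, unlike the brighter Csta probe. The log2 difference was 4.51 ± 0.68 between DSS and untreated normal colon and -5.74 ± 0.68 between tumour and normal colon of DSS rats.

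Krtdap, the secreted keratinocyte protein, had log2 ratios of 4.53, 4.67, 4.20, 4.95 and 6.38 in normal colon of DSS rats, against -0.01, -0.12, 0.12, 4.20 and 0.03 in normal colon of untreated rats, in the same rat order as above. Untreated rat 8 again reached the lowest DSS rat, and the other 4 untreated rats were at the level of the pool. Tumours ranged from -0.28 to -0.08 in DSS rats and from -0.24 to -0.01 in untreated rats, and Cy3 was well above background on 1 of 6 and 3 of 5 of their arrays. The log2 difference was 4.10 ± 0.61 between DSS and untreated normal colon, and -5.15 ± 0.61 between tumour and normal colon of DSS rats, where the tumours were mostly at background.

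Slurp1, the secreted Ly6 and uPAR protein, had log2 ratios of 4.48, 4.88, 4.24, 3.60 and 5.68 in normal colon of DSS rats, against 0.12, 0.11, 0.22, 1.55 and -0.02 in normal colon of untreated rats. The groups did not overlap, and untreated rat 8 was the only untreated rat clearly above the pool. Its tumour levels were -0.15, -0.43, -0.51, -0.58 and -0.43 in DSS rats, against -0.06, -0.06, -0.13, -1.01 and -1.07 in untreated rats. All tumours were below the pool. The log2 difference was 4.18 ± 0.34 between DSS and untreated normal colon, an 18.1-fold difference, and -5.00 ± 0.34 between tumour and normal colon of DSS rats.

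**Figure D1:**
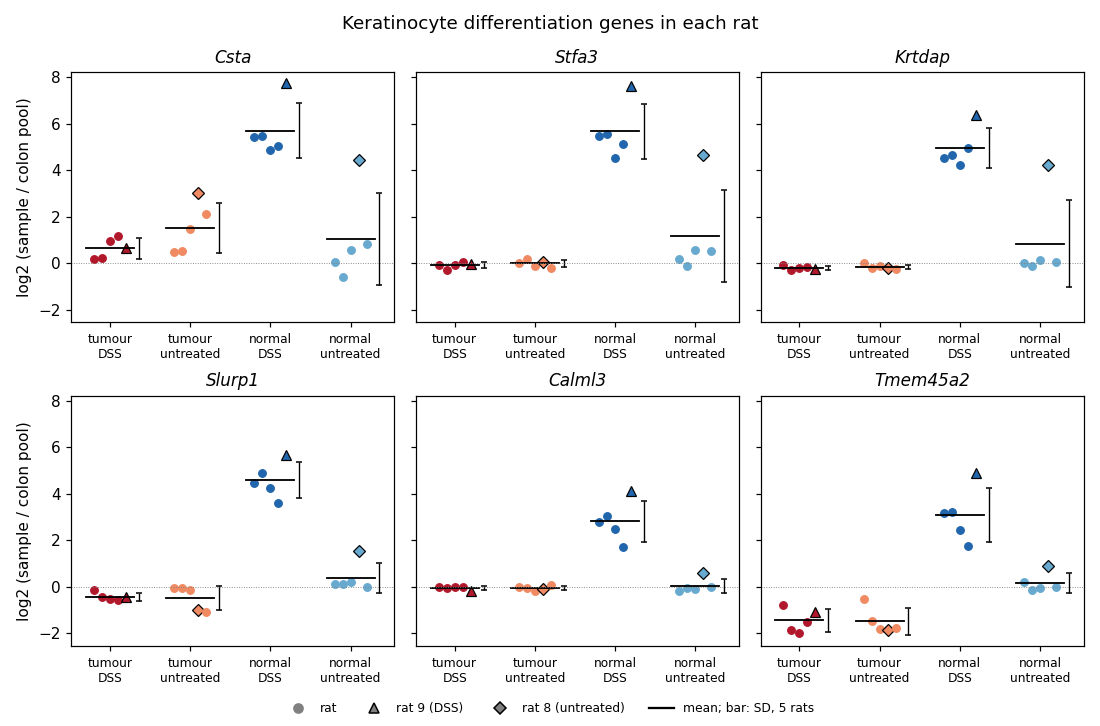
Log2 ratio of sample to colon pool for the 6 measured genes, 1 panel per gene, in tumours of DSS and untreated rats and normal colon of DSS and untreated rats. Each point is 1 rat, the line is the mean and the bar at its right the SD of 5 rats; rat 9 (triangle) is the highest normal colon of DSS rats and rat 8 (diamond) the highest normal colon of untreated rats in every panel.

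Calml3, the calmodulin-like protein, had log2 ratios of 2.78, 3.03, 2.49, 1.70 and 4.10 in normal colon of DSS rats, against -0.19, -0.07, -0.10, 0.59 and 0.00 in normal colon of untreated rats. The groups did not overlap. Tumours lay between -0.17 and 0.02 in DSS rats and between -0.15 and 0.07 in untreated rats, and the probe was well above background on only 3 of the 11 tumour arrays. In normal colon of untreated rats it was so on 4 of 7 arrays. The size of differences from these dim groups is uncertain. The log2 difference was 2.77 ± 0.28 between DSS and untreated normal colon, and -2.86 ± 0.28 between tumour and normal colon of DSS rats.

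Tmem45a2, the membrane protein, was below the pool in tumours. Its log2 ratios were 3.17, 3.20, 2.45, 1.76 and 4.88 in normal colon of DSS rats, against 0.20, -0.15, -0.04, 0.90 and -0.03 in normal colon of untreated rats. In tumours they were -0.79, -1.87, -1.96, -1.49 and -1.07 in DSS rats, against -0.50, -1.46, -1.81, -1.86 and -1.78 in untreated rats. Every tumour was below the pool and below every normal colon. The log2 difference between tumour and normal colon of DSS rats was -4.53 ± 0.43, or 23.1-fold on the scale of ratios to the pool. In tumours of DSS rats Cy3 was not well above background on any of 6 arrays, so only a bound can be had there. In the Cy3 channel alone, which leaves the pool out, normal colon of DSS rats was at least 35.2-fold higher. That bound sets the bright group's mean against the higher of the lowest signal well above background and the probe's own signal on each array. It is on another scale than the ratio, it lies above the fold of the ratios, and it is open to dye bias, which was not tested. The log2 difference between DSS and untreated normal colon was 2.91 ± 0.43.

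Sfnl1, the relative of Sfn on the array, behaved less uniformly and was well above background on all 24 arrays. Its log2 ratios were 2.24, 2.25, 2.07, 1.73 and 2.52 in normal colon of DSS rats, against 0.76, 0.76, 1.45, 0.07 and 0.59 in normal colon of untreated rats. Rat 8 was the lowest untreated rat here, not the highest. Tumours were above the pool too, with 1.43, 1.83, 1.51, 2.22 and 1.27 in DSS rats, against 1.70, 1.29, 2.37, 1.08 and 0.85 in untreated rats. The log2 difference was 1.44 ± 0.27 between DSS and untreated normal colon. Between tumour and normal colon of DSS rats it was -0.51 ± 0.27, but 0.24 with median centring in place of loess, so its direction depends on the scaling.

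Ordered by group mean, normal colon of DSS rats came first for all 6 genes. For Stfa3, Krtdap, Slurp1, Calml3 and Tmem45a2 normal colon of untreated rats came next and the tumour groups last. This is an order of means only. Among these genes Tmem45a2 alone passed the test between tumour and normal colon of untreated rats, with all rats in. Without rat 8 that difference was 0.0555 for Calml3, so its direction turned. For Csta the tumours of untreated rats came second, with a mean of 1.52 ± 1.07 (SD, n = 5), against 1.05 ± 1.97 in normal colon of untreated rats, and these neighbours did not differ beyond their spread. The ranges of the tumour groups overlapped for all 6 genes. In bulk tissue, fewer cells of a type and less RNA per cell cannot be told apart.

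Rat 8 carried much of the spread among untreated rats. Its normal colon was the highest of the 5 for 6 of 6 genes, with a mean over the genes of 2.72, against -0.16 to 0.22 in the other untreated rats. Set beside the mean of normal colon of DSS rats, Stfa3 and Krtdap of rat 8 were close (4.65 against 5.66, and 4.20 against 4.95). Slurp1, Calml3 and Tmem45a2 of rat 8 were further below (1.55 against 4.58, 0.59 against 2.82, and 0.90 against 3.09). The tumour of the same rat had a mean of -0.01 over the genes, within the range of -0.19 to -0.01 in tumours of untreated rats. Without rat 8 the log2 difference between DSS and untreated normal colon was 5.50 ± 0.51 for Csta, 5.38 ± 0.41 for Stfa3 and 4.94 ± 0.29 for Krtdap, against 4.47 ± 0.30 for Slurp1, 2.91 ± 0.30 for Calml3 and 3.09 ± 0.46 for Tmem45a2.

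Among DSS rats, rat 9 was the highest normal colon for 6 of 6 genes, with a mean over the genes of 6.06, and rats 6 and 7 were each the lowest for 3 genes, with means of 3.79 and 3.69. Normal colon of rats 1 and 5 had close values for every gene. Across all features these samples correlated at 0.969, whereas second arrays of 1 sample correlated at 0.812 to 0.968. With rats 1 and 5 averaged as 1 sample, the median over the 6 genes of the DSS minus untreated difference in normal colon was 4.17, against 4.14 with both. Arrays came from slides of 2 series, read from the slide identifiers, with rats 1 to 6 in the first and rats 7 to 10 in the second. In slide series 1 and 2 the difference between DSS and untreated normal colon was 5.25 and 3.75 for Csta, 4.998 and 3.77 for Stfa3, and 4.47 and 3.54 for Krtdap. It was 4.39 and 3.87 for Slurp1, 2.88 and 2.60 for Calml3, and 2.94 and 2.88 for Tmem45a2, and rat 8 lies in the second series.

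**Figure D2:**
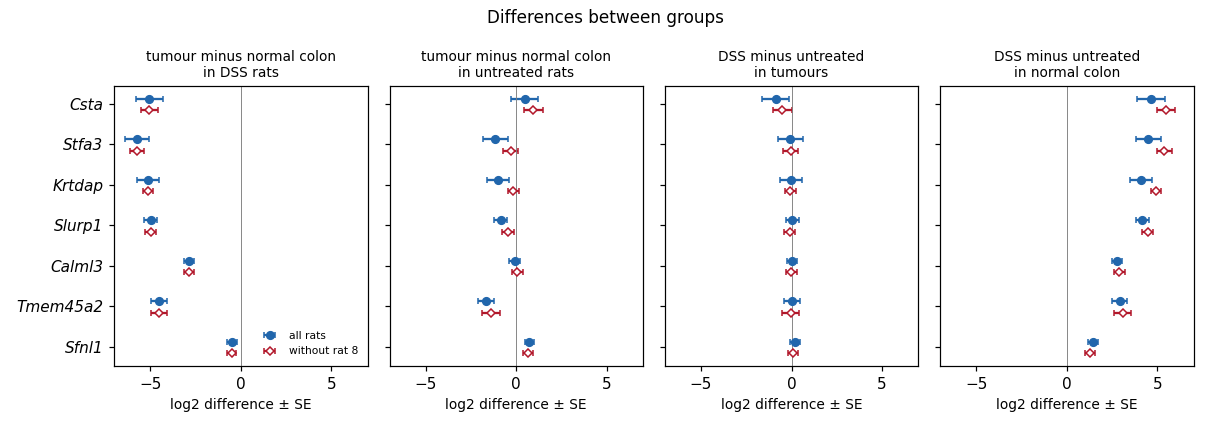
Log2 difference between groups ± SE for the 6 measured genes and Sfnl1 in 4 comparisons, with all rats (filled circles, 5 per group) and without rat 8 (open diamonds). The 6 genes lie below -2.8 for tumour minus normal colon in DSS rats, between -0.88 (Csta) and 0.05 for DSS minus untreated in tumours, and above 2.7 for DSS minus untreated in normal colon.

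The comparison of tumour with normal colon in untreated rats was not used to choose the genes, though it shares the untreated normal colon with one that was. Of the 6 genes 1 passed the test, Tmem45a2, which fell, while over all 26845 features 9.41% were called lower and 8.55% higher. Tmem45a2 averaged -1.48 ± 0.57 in tumours and 0.18 ± 0.42 in normal colon of untreated rats (SD, n = 5 each). It was lower by a log2 difference of -1.66 ± 0.43 (SE, adjusted p = 0.0116), and lower in 5 of 5 rats when each tumour was set against its own normal colon. Those differences were -0.70, -1.31, -1.77, -2.76 and -1.75 in rats 2, 3, 4, 8 and 10. Krtdap and Slurp1, which did not pass, were also lower in 5 of 5 rats, but by unequal amounts. In the same rat order Krtdap differed by -0.0009, -0.10, -0.23, -4.40 and -0.28, so only rat 8 had a large difference. Slurp1 differed by -0.18, -0.17, -0.35, -2.56 and -1.06. Cy3 of Tmem45a2 was well above background on 2 of 5 arrays of these tumours, and Cy3 of Krtdap on 3 of 5. The call was lost without rat 8 (-1.38 ± 0.49, adjusted p = 0.0854, when 5.21% of features were called lower and 4.67% higher) and within slide series 1 (-1.26, adjusted p = 0.0534) and slide series 2 (-2.26, adjusted p = 0.2). Within slide series 1 and 2, which held fewer rats, 3247 and 2470 of all features were called, against 4821 with all rats. With the scanner's processed signals in place of normexp and loess the difference was -3.95.

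The other 5 genes did not pass in untreated rats. Slurp1 averaged -0.47 ± 0.52 in tumours and 0.40 ± 0.65 in normal colon (SD, n = 5 each). Its ranges did not overlap, but its log2 difference of -0.86 ± 0.34 had an adjusted p of 0.0938. Without rat 8 this was -0.44, and within slide series 1 and 2 it was -0.23 and -1.81. Stfa3 differed by -1.16 ± 0.68 (adjusted p = 0.285), or -0.31 without rat 8. Krtdap differed by -1.001 ± 0.61 (adjusted p = 0.309), or -0.15 without rat 8. The within-series values were -0.16 and -2.67 for Stfa3 and -0.11 and -2.34 for Krtdap. Rat 8, the rat with the high normal colon, is in the second series.
Calml3 differed by -0.10 ± 0.28 (adjusted p = 0.89, 95% interval -0.68 to 0.49). Csta differed by 0.47 ± 0.76 (adjusted p = 0.777, 95% interval -1.13 to 2.06), with values from -0.37 to 1.31 over the alternative settings. Sfnl1 differed by 0.73 ± 0.27 (adjusted p = 0.0715). With the rat as a block, which pairs tumour and normal colon of 1 animal, the adjusted p of Sfnl1 was 0.0239. With that block 6661 of all features were called, against 4821 without it.

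In tumours, DSS and untreated rats were not told apart by any of the genes, in a comparison that shares the DSS tumours with one that chose the genes. By limma 0 of 6 genes passed, and 0 of 6 had an unadjusted p under 0.05. Over all features 0% were called in either direction, although 1692 had an unadjusted p under 0.05. The log2 difference was -0.88 ± 0.76 for Csta (95% interval -2.48 to 0.72) and -0.07 ± 0.68 for Stfa3 (95% interval -1.51 to 1.36). It was -0.05 ± 0.61 for Krtdap, 0.05 ± 0.34 for Slurp1, 0.01 ± 0.28 for Calml3 and 0.04 ± 0.43 for Tmem45a2. These SEs draw on the spread of normal colon too, and without rat 8 they were 0.41 for Stfa3 and 0.29 for Krtdap. The 95% interval ran from -0.58 to 0.59 for Calml3 and from -0.67 to 0.77 for Slurp1, but Calml3 was well above background on only 1 of 6 arrays of DSS tumours and 2 of 5 of untreated tumours. Its ratio was therefore near 0 in both groups, and its interval limits no difference in expression. Stfa3 (3 of 6 and 4 of 5 arrays), Krtdap (1 of 6 and 3 of 5) and Tmem45a2 (0 of 6 and 2 of 5) were dim in tumours too. The adjusted p was 1 for all 6.

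Csta, Stfa3 and Krtdap each had a second, dimmer probe. The second Csta probe had log2 ratios of 3.87, 3.85, 2.33, 3.56 and 5.20 in normal colon of DSS rats, against -0.09, -0.07, -0.05, 1.65 and 0.01 in normal colon of untreated rats. It stayed between -0.18 and 0.01 in all tumours and was not well above background on any of the 11 tumour arrays. The tumour signal of up to 3.01 on the brighter Csta probe was therefore not seen on the second. In tumours of DSS against untreated rats the second probe differed by 0.0059, where the brighter one differed by -0.88.
Stfa2, another stefin of the cluster, had log2 ratios of 0.13, 0.62, 0.51, 0.77 and 1.24 in tumours of DSS rats, against 0.21, 0.79, 0.91, 1.95 and 1.75 in tumours of untreated rats. Its highest tumours were rats 8 and 10, as for the brighter Csta probe. Whether that probe reads Stfa2 RNA was not tested. The second Stfa3 probe, on the opposite strand, averaged 0.71 ± 0.34 in normal colon of DSS rats and 0.14 ± 0.36 in normal colon of untreated rats (SD, n = 5 each). The second Krtdap probe averaged 0.62 ± 0.45 in normal colon of DSS rats and -0.02 ± 0.02 in normal colon of untreated rats, and it was at -0.05 in rat 8, where the brighter probe read 4.20. It was well above background on only 2 of 7 arrays of untreated normal colon. In normal colon of DSS rat 6, where the brighter probe also read 4.20, it was at 0.25.

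**Figure D3:**
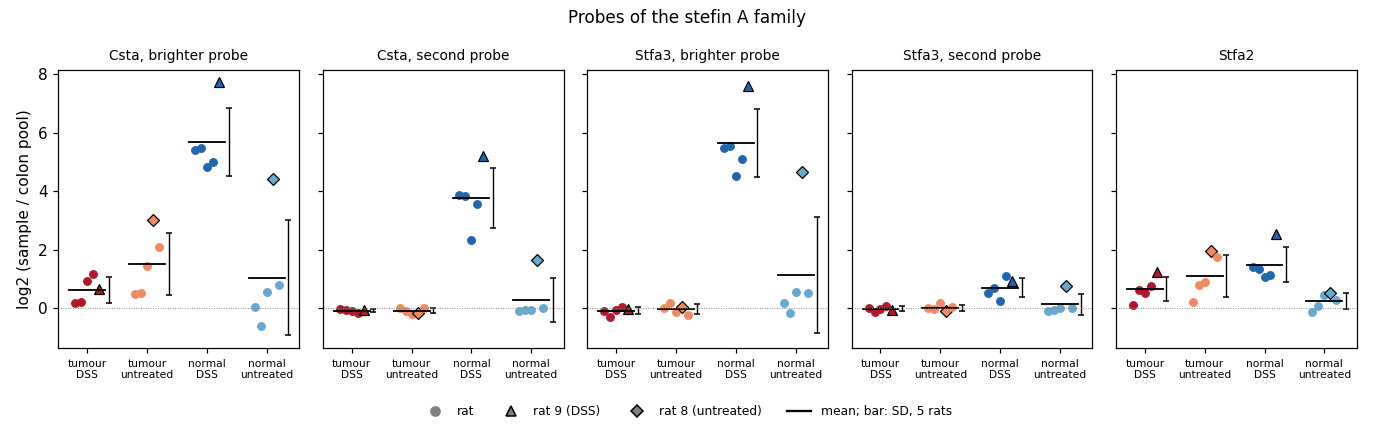
Log2 ratio of sample to colon pool for the brighter and second probes of Csta and Stfa3 and for Stfa2, by group, with 1 point per rat, the mean as a line and the SD of 5 rats as a bar. The brighter Csta probe and Stfa2 read above 1.7 in tumours of untreated rats 8 and 10, while the second Csta probe and both Stfa3 probes stay near 0 in all tumours.

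The genes followed each other closely across normal colon. Over the 10 normal colons Pearson's r between pairs of the 6 genes was 0.893 to 0.997, and over all 20 samples it was 0.822 to 0.996. Over the 10 tumours it was -0.783 to 0.644. The samples share groups, pool and arrays, and the genes were chosen by a difference between the groups of normal colon. A high r over normal colons or over all samples follows in part from that choice. Stfa3, Krtdap, Calml3 and Tmem45a2 were dim in tumours, so r over tumours says little about them. These values describe the pattern only. Among named genes outside the set, the most similar to Krtdap over 20 samples were the kallikrein proteases Klk12 and Klk13 (r = 0.997 and 0.996) and the galectin Lgals7 (0.996), and the same 3 genes were nearest to Stfa3. Nearest to Csta were Sbsn, Serpinb2 and Wfdc18 (0.957, 0.955 and 0.954). For Slurp1 they were Ly6d, Krt10 and Prss27 (0.981, 0.981 and 0.977), for Calml3 Tmprss11g, Mal and Lipm (0.993, 0.99 and 0.989), and for Tmem45a2 Lypd2, Dapl1 and Gjb2 (0.992, 0.954 and 0.953). Klk12 averaged 3.69 ± 0.86 in normal colon of DSS rats and 0.66 ± 1.5 in normal colon of untreated rats (SD, n = 5 each), and rat 8 stood at 3.34.

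Other genes of the same programme were counted from lists, each with the genes of the 6 left out. Over all features, 3.87% were called higher and 3.31% lower in normal colon of DSS rats than of untreated rats. Of 11 squamous keratins tested, 9 were higher and 0 lower, among them Krt5 (2.53 ± 0.21, adjusted p = 1.77e-06), the basal keratin, and Krt10 (3.17 ± 0.29, adjusted p = 5.1e-06), the keratin of the upper layers. Of 10 cornified envelope genes tested, 7 were higher and 0 lower. They included Tgm1, the enzyme that cross-links the envelope (2.39 ± 0.22, adjusted p = 5.78e-06), and Sprr3, one of its substrates (3.82 ± 0.43, adjusted p = 3.9e-05). On the array 12 envelope genes had a probe. Ivl was not tested, and it was above background on no array of normal colon of DSS rats.
Of 21 epidermal proteases and inhibitors 17 were higher and 0 lower, among them the kallikrein Klk6 (2.43 ± 0.21, adjusted p = 2.88e-06) and Spink5, an inhibitor of kallikreins (3.87 ± 0.41, adjusted p = 1.54e-05). In untreated normal colon Cy3 was well above background on 3 of 7 arrays for Krt10 and Klk6, and on 4 of 7 for Spink5. It was so on 5 of 7 for Sprr3 and on 6 of 7 for Krt5 and Tgm1. Where a gene was dim there, the size of its difference is uncertain. Without rat 8 the counts were 9 of 11 keratins, 7 of 10 envelope genes and 17 of 21 proteases and inhibitors, when 3.12% of all features were called higher and 2.67% lower. The median log2 difference was 2.22 over the keratins, 1.47 over the envelope genes and 1.37 over the proteases and inhibitors, against -0.01 over all features. The lists were drawn up with earlier results of these arrays known, so the counts are not independent of the choice. The signal filter asked for at least 5 arrays, so a gene bright in normal colon of DSS rats alone could pass. A gene dim there and elsewhere was left out of the counts.

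Of 26 keratinocyte transcription factors 12 were higher and 1 lower, and Tp63, the master regulator of stratified epithelia, had the smallest p. Tp63 had log2 ratios of 4.49, 4.68, 2.85, 3.36 and 7.18 in normal colon of DSS rats, against -0.09, -0.11, -0.07, 0.81 and 0.00 in normal colon of untreated rats (difference 4.40 ± 0.51, adjusted p = 3.83e-05). Rat 8 was again the highest untreated rat, and rat 9 the highest DSS rat. In all tumours Tp63 lay between -0.06 and 0.15, but it was well above background on 0 of 6 arrays of DSS tumours and on no array of untreated tumours. In untreated normal colon it was so on 2 of 7 arrays. Its ratios near 0 there therefore do not show a level equal to the pool. Tp63 was well above background on 6 of 6 arrays of normal colon of DSS rats and passed the signal filter through them. Its p-values in comparisons with that group are therefore no independent support. Of 12 barrier lipid enzymes 6 were higher and 0 lower, and Fabp5, a fatty acid binding protein of the epidermis, differed by 5.29 ± 0.43 (adjusted p = 1.77e-06). The median was 0.30 over the transcription factors and 0.40 over the lipid enzymes. Of 11 desmosome genes 2 were higher, Dsc3 (0.74 ± 0.19, adjusted p = 0.0232) and Dsc1 (0.41 ± 0.11, adjusted p = 0.0351), and 0 without rat 8. With the rat as a block, Dsc1 had an adjusted p of 0.0517. Dsc3 and Dsc1 were each well above background on 2 of 7 arrays of untreated normal colon.

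The closest relatives of the 6 genes changed less uniformly in normal colon of DSS rats. Of 12 cystatins and cathepsins, the inhibitors and targets of this protease class, 3 were higher and 0 lower. These were Ctsl (1.19 ± 0.20, adjusted p = 0.000989), Cst6 (1.59 ± 0.28, adjusted p = 0.00157) and Stfa2 (1.25 ± 0.32, adjusted p = 0.022). Of 15 genes of the Ly6 and uPAR family and nicotinic receptors 7 were higher and 0 lower, led by Ly6d (3.29 ± 0.37, adjusted p = 2.73e-05) and Lypd3 (3.05 ± 0.36, adjusted p = 4.56e-05). Ly6d was well above background on 3 of 7 arrays of untreated normal colon, so the size of its difference is uncertain.
Among 5 calmodulin relatives and Myo10, 1 was higher, the skin calmodulin relative Calml5 (2.43 ± 0.35, adjusted p = 0.000256). Calml5 was well above background on 4 of 7 arrays of untreated normal colon. Of 16 other 14-3-3 and p53 pathway genes 1 was higher, the p53 target Phlda3 (1.91 ± 0.31, adjusted p = 0.000748). Tmem45b, the 1 relative of Tmem45a2 that was measured, differed by -0.40 ± 0.41 (adjusted p = 0.635).

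Most of these lists held genes that were lower in tumour than in normal colon of DSS rats, in a comparison that shares the DSS normal colon with the one above. Over all features 3.71% were called higher and 3.82% lower in tumours, and 3.78% and 4.02% when rat 8 was left out of the shared spread. Of the squamous keratins 9 of 11 were lower and 0 higher, of the envelope genes 6 of 10 lower and 0 higher, and of the proteases and inhibitors 16 of 21 lower and 1 higher. Of the transcription factors 11 of 26 were lower, with Tp63 at -4.44 ± 0.51 (adjusted p = 2.67e-05). Of the Ly6 and uPAR list 5 of 15 were lower, and of the cystatins and cathepsins 3 of 12 lower and 1 higher. Of the lipid enzymes 6 of 12 were lower and 1 higher, and of the desmosome genes 2 of 11 lower and 0 higher. Calml5 (-2.95 ± 0.35, adjusted p = 3.43e-05) and Tmem45b (-1.62 ± 0.41, adjusted p = 0.0195) were lower as well. Tp63 and Calml5 were each well above background on 0 of 6 arrays of these tumours, so the size of their differences is uncertain. Of the 14-3-3 and p53 list 0 of 16 were lower and 2 higher, the 14-3-3 gamma gene Ywhag (0.94 ± 0.25, adjusted p = 0.0236) and the cell death gene Bax (0.57 ± 0.16, adjusted p = 0.0301).

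In untreated rats listed genes were called in both directions between tumours and normal colon, while 0 of the 6 genes passed as higher. Among those higher in tumours, Tgm1 differed by 2.39 ± 0.22 (adjusted p = 2.28e-06), Fabp5 by 4.14 ± 0.43 (adjusted p = 6.29e-06), Lypd3 by 2.46 ± 0.36 (adjusted p = 0.000163) and Cnfn, a small envelope protein, by 1.58 ± 0.40 (adjusted p = 0.00951). Cnfn was well above background on 3 of 7 arrays of untreated normal colon. Tgm1 had log2 ratios of 1.79, 2.02, 2.72, 2.88 and 2.92 in tumours of untreated rats, against 0.03, -0.05, 0.07, 0.37 and -0.01 in their normal colon, with no overlap. Tmem45b was lower in these tumours (-1.51 ± 0.41, adjusted p = 0.0147), as Tmem45a2 was. Other listed genes were lower, among them Tgm3, a second cross-linking enzyme (-2.94 ± 0.65, adjusted p = 0.00422), the kallikrein Klk8 (-1.82 ± 0.33, adjusted p = 0.000858), the transcription factor Klf4 (-1.998 ± 0.27, adjusted p = 9.11e-05) and Lypd2 (-0.79 ± 0.23, adjusted p = 0.0206). Of 139 genes on the 11 gene lists 22 were higher and 11 lower in this comparison, 23.7% in all, against 18% of all features. In DSS against untreated tumours 0 of the 139 passed by limma, and 12 had an unadjusted p under 0.05.

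**Figure D4:**
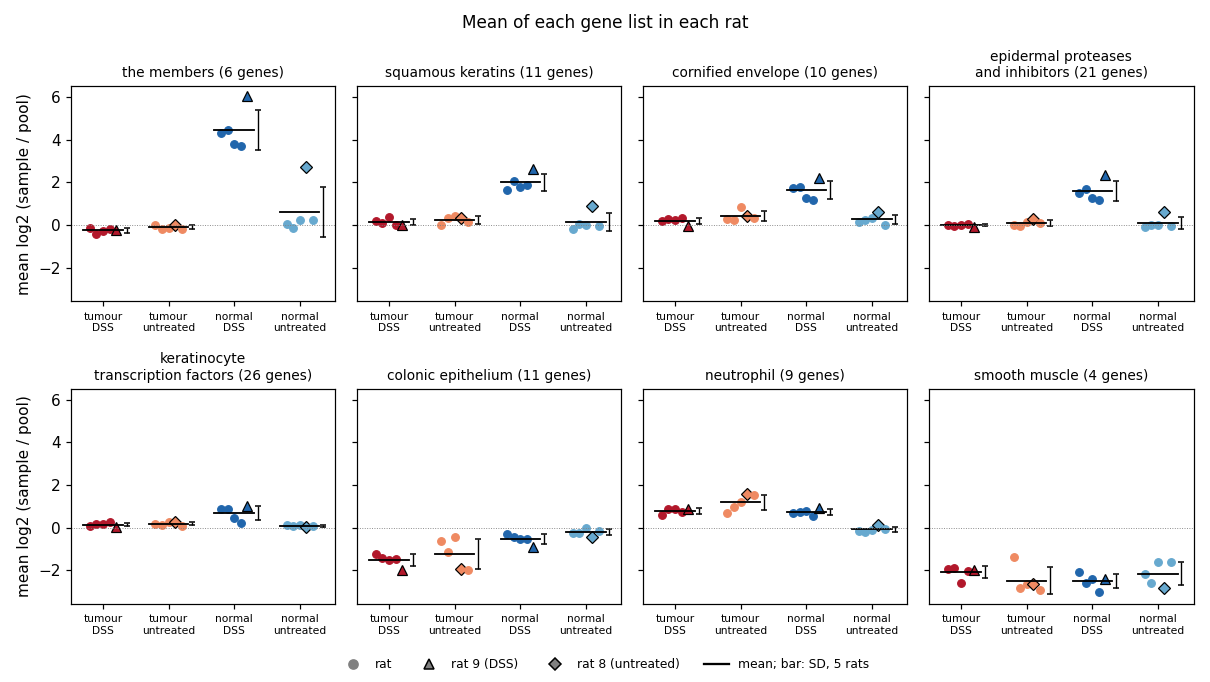
Mean log2 ratio over the tested genes of each list in each rat, by group, with the group mean as a line and the SD of 5 rats as a bar. The measured keratinocyte genes, squamous keratins, envelope genes and proteases stand highest in normal colon of DSS rats, with rat 9 (triangle) on top, and rat 8 (diamond) is the highest untreated normal colon in these 4 panels.

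Markers of other cell types were measured on the same arrays. The labelled tissue held its own markers: 11 of 11 colonic epithelium genes were above background on every normal colon array. Of these 0 passed in DSS against untreated normal colon, and Tff3 had the smallest p (-0.90 ± 0.30, adjusted p = 0.077, unadjusted p = 0.0072, limma). The mean over the list ran from -0.92 to -0.28 in DSS rats and from -0.43 to 0.00 in untreated rats. Rat 9 had the lowest mean of the DSS rats, at -0.92, and rat 8 the lowest of the untreated rats, at -0.43.
Of 9 neutrophil markers 2 were higher in normal colon of DSS rats, S100a8 (3.15 ± 0.39, adjusted p = 6.06e-05) and S100a9 (2.68 ± 0.39, adjusted p = 0.000282), genes that keratinocytes also make. The list mean ran from 0.53 to 0.92 in DSS rats and from -0.22 to 0.12 in untreated rats. Of 11 list genes on the array, 3 were above background on every array of normal colon from DSS rats and 3, Mpo, Ltf and Itgam, on none. Which cells gave the S100a8 and S100a9 signal was not tested. Mpo and Ltf were also above background on no array of tumours of untreated rats, where the list mean ran from 0.70 to 1.56.
Of 2 urothelial markers measured of 5, Upk1b was higher, with log2 ratios of 3.51, 3.62, 2.71, 0.12 and 4.67 in normal colon of DSS rats, against -3.40, -4.17, -2.56, -2.74 and -1.58 in that of untreated rats. Rat 8 was not raised for it. Of 6 fibroblast and 6 macrophage genes 1 each was higher, and 0 of either without rat 8, while 0 of 4 smooth muscle and 0 of 5 T and B cell genes passed. The part of these cell types in the levels of the 6 genes was not tested.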

How the data were processed

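RNA of 20 samples, tumour and normal distal colon of 10 rats, was read on 24 arrays of 2 colours. Per the file headers, the authors read spot intensity values with Feature Extraction 9.1.3.1. The deposited log10 ratios are of Cy5 over Cy3 processed intensities, background-subtracted and dye-normalized by that program, and no value given here comes from them. The submitters' processing notes also name Partek without saying its role. Mean and background intensities were background-corrected (normexp, offset 50), normalized by loess within each array and expressed as log2 of Cy3 (sample) over Cy5 (pool) with limma 3.58.1 in R 4.3.3. No dyes were swapped, so dye bias does not cancel within a level. Spots that the program marked as non-uniform were left out. A probe was kept where Cy3 was well above background on at least 5 arrays, and the brightest probe stood for a gene. Second arrays of 4 samples were averaged. One model of 4 group means gave the tests, with Benjamini-Hochberg adjustment over 26845 features and a threshold of 0.05. The steps were tested on simulated data.

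The genes and the lists were chosen with earlier results of these data known. Every member is named. From each list the text names genes with the smallest p among those that passed, up to 4 per comparison, or the gene with the smallest p where none passed. The 3 most similar genes were those with the highest Pearson's r over 20 samples. The per-rat values of Tp63, Tgm1, Upk1b and Stfa2 were chosen after their values were seen. Rat numbers mark the same animal, so tumour and normal colon are paired. Deviations of the same rat from the group means correlated at 0.0771 to 0.568 (median 0.397). Gene names came from the files, updated through RefSeq tables, and promoters from RefSeq GRCr8. Other background correction, scaling, filters, blocks, probes and left-out rats were tried.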

Additional observations from a re-analysis of the deposited data

Results flagged for a closer look

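Among 28 sets of 5 rats (the 6 genes and Sfnl1 in 4 groups), 6 held a rat whose gap to its nearest neighbour exceeded 0.71 of the whole range, Dixon's critical value, which chance exceeds in about 1 of 20 sets. In normal colon of DSS rats it was rat 9 for Csta, at 7.73, with the next rat at 5.48. In normal colon of untreated rats it was rat 8 for 5 genes. Rat 8 was at 4.44 for Csta (next rat 0.81), 4.65 for Stfa3 (next 0.55), 4.20 for Krtdap (next 0.12), 1.55 for Slurp1 (next 0.22) and 0.59 for Calml3 (next 0.00). The genes share 1 RNA sample in each rat, so these 5 are not independent of each other.

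Other squamous genes in the normal colon of rat 8 were measured beside them. Krt10 stood at 1.86, Spink5 at 1.91, Krt5 at 0.70, Tp63 at 0.81 and Tgm1 at 0.37, while Upk1b stood at -2.74. The neutrophil genes S100a8 and S100a9 stood at 0.98 and 1.82. Their part in the levels of rat 8 was not tested.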

How the results depend on the processing

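Of 6 genes, 1 was called in tumour against normal colon of untreated rats, and the count was 2 with the processed signals (Slurp1, adjusted p = 0.0113, and Tmem45a2), 0 within slide series 1, 0 within slide series 2 and 0 without rat 8. Calls over all 26845 features moved too, from 4821 to 6040 with the processed signals and 2651 without rat 8. They were 3247 and 2470 within slide series 1 and 2, which held fewer rats. The median over the 6 genes was -5.97 with the processed signals and -3.35 with the second probes in tumour against normal colon of DSS rats, where it was otherwise -5.03. In DSS against untreated normal colon it was 2.84 with the second probes, against 4.14. Leaving out each sample in turn gave 1 to 1 and 0 to 0 genes called in the comparisons of untreated rats and of tumours, and medians of 3.82 to 4.70 and -5.19 to -4.64 in normal colon and in DSS rats. Calls over all features then ran from 3425 to 5882 in untreated rats and from 0 to 3 in tumours. The sign of a single gene's difference turned 21 times outside the left-out samples, and none of those values that were tested passed. In tumour against normal colon of DSS rats it turned for Sfnl1 with median centring (0.24). In untreated rats it turned for Csta within slide series 2 (-0.073) and with the second probe (-0.37), and for Calml3 within slide series 1 (0.051) and without rat 8 (0.0555). In DSS against untreated tumours it turned for Stfa3 with median centring (0.053) and within slide series 2 (0.087), for Krtdap within slide series 2 (0.0043), for Csta with the second probe (0.0059) and for Sfnl1 within slide series 1 (-0.20). There it also turned for Calml3 with median centring (-0.11), within slide series 2 (-0.059) and without rat 8 (-0.0059), and for Slurp1 with the processed signals (-0.085), within slide series 1 (-0.28) and without rat 8 (-0.088). For Tmem45a2 it turned there with the processed signals (-0.32), with slide as a block (-0.070), within slide series 1 (-0.29), without the 3 arrays of raised signal (-0.049) and without rat 8 (-0.052). Leaving out single samples gave -0.10 to 0.15 for Slurp1, -0.0175 to 0.042 for Calml3 and -0.12 to 0.29 for Tmem45a2 in tumours, and -0.16 to 0.0405 for Calml3 in untreated rats. The causes were not tested. Leaving out rat 8, using rats 1 and 5 as 1 sample and using the second probes were chosen after seeing the data.

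With the replicate block, the rat as a random block, 1 gene was called in untreated rats (Tmem45a2, adjusted p = 0.00277), and the medians were 4.14 and -5.03. Calls over all 26845 features in untreated rats rose as well, to 6661 with the block, against 4821 without it. The block was checked for the 6 genes, Sfnl1 and the named genes that had passed in normal colon or in untreated rats. Among these it changed the call of Sfnl1 (adjusted p = 0.0239) and of Dsc1 (adjusted p = 0.0517) and no other. Named genes of the comparison within DSS rats, and those that had not passed, were not checked with it. Over all features, calls in untreated rats numbered 4821, against 918 with median centring, 2651 without rat 8 and 2470 within slide series 2. In DSS rats they numbered 2022, against 661 with median centring, 3431 with the replicate block, 3247 with slide series and 3638 with slide as a block, and 111 within slide series 2. In normal colon they numbered 1927, against 367 with median centring, 3538 and 4724 with those slide blocks, 3158 and 2 within slide series 1 and 2, and 1108 and 1212 without untreated rat 2 or 4. In tumours they numbered 0, against 29 with slide as a block, 1 without DSS tumour 6 and 3 without untreated tumour 2. Median centring moved the median of all features by 0.23 in DSS rats and 0.22 in tumours. It changed the share of higher calls to 60.1%, against 49.3%, in DSS rats and to 80.9%, against 53.9%, in normal colon.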
